A study of Mus musculus with 20 samples.

Results

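The genes described here encode the constitutive proteasome, the protease complex that degrades most ubiquitin-tagged proteins in every cell. They were chosen by name: 46 genes whose symbol on the array begins with Psma, Psmb, Psmc, Psmd, Psme, Psmf or Psmg, without the immunoproteasome genes Psmb8, Psmb9 and Psmb10. Of these, 44 lay above the signal limit of the test, among 13351 genes tested in all. The other 2, the testis-specific α subunit Psma8 and the thymus-specific β subunit Psmb11, had signals of 7.7 to 141.9 and 6.3 to 107.4 over the 20 mice, below the limit of 184. Psmc3ip and Psme3ip1 met the name rule but encode partner proteins, not subunits. Psme2 was represented only by a probe set with several gene symbols and was not used.

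Neocortex messenger RNA was measured on Affymetrix arrays, 1 array per mouse, in 4 groups of 5 male mice of the hybrid strain B6C3F1, all housed singly. The first group was 30 months old and from 15 months of age had eaten α-tocopherol and γ-tocopherol together, each at 500 mg/kg (the mixture). The second was 30 months old with α-tocopherol alone at 1000 mg/kg since 15 months. Old control mice aged 30 months and young control mice aged 5 months ate the control diet. α- and γ-tocopherol are forms of vitamin E. The study asked how age changes brain transcripts and what the supplements do to aged brain.

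The proteasome has a barrel-shaped core particle of stacked rings. The outer rings are built of α subunits (Psma genes) and gate the channel, and the inner rings of β subunits (Psmb genes) hold the peptide-cutting sites. A regulatory particle caps the core: its ATPases (Psmc genes) unfold substrates, and its other subunits (Psmd genes) bind and remove ubiquitin. Dedicated chaperones (Psmg genes and some Psmd genes) assist assembly, and alternative activators (Psme genes) can replace the cap. In neurons the proteasome takes part in synaptic protein turnover.

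In old control compared with young control neocortex, proteasome genes moved in both directions, with a share called near that of all genes. Psmb3, Psma6, Psmc1 and Psmd2 were higher by 1.23- to 1.54-fold. Psma4, Psma1, Psmg2 and Psmb7 were lower: Psma4 fell by 29.4% and Psmb7 fell by 12.1%, with the other two between them. These 8 of 44 genes (18.2%) passed limma's test at an adjusted p of 0.05, compared with a background of 22.8% of all genes tested (12.4% higher and 10.4% lower). Of the 44 genes, 3 had every old control mouse above every young control mouse (background 9.14%) and 3 had every one below (7.42%), together beside 16.6% of all genes. The median log2 difference was 0.01 over the proteasome genes, with 22 above 0 and 22 below, and -0.02 over all genes. The median absolute log2 difference was 0.115, against 0.177 over all genes. The proteasome genes also varied less among mice of a group, with a median SD of 0.134 against 0.176. Their mean log2 signal was 11.91 to 11.95 by group. Neither the size of the differences nor the SD was compared with genes of like signal. The 95% intervals of 20 of the 44 genes held no change beyond 1.2-fold in either direction, and those of 39 none beyond 1.5-fold. These intervals were not counted over all genes. The split of calls depended on scaling: with array medians set equal, which moved the all-gene median to 0.11, 7 genes were higher and 2 lower, beside 23.3% higher and 3.23% lower among all genes.

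**Figure D1:**
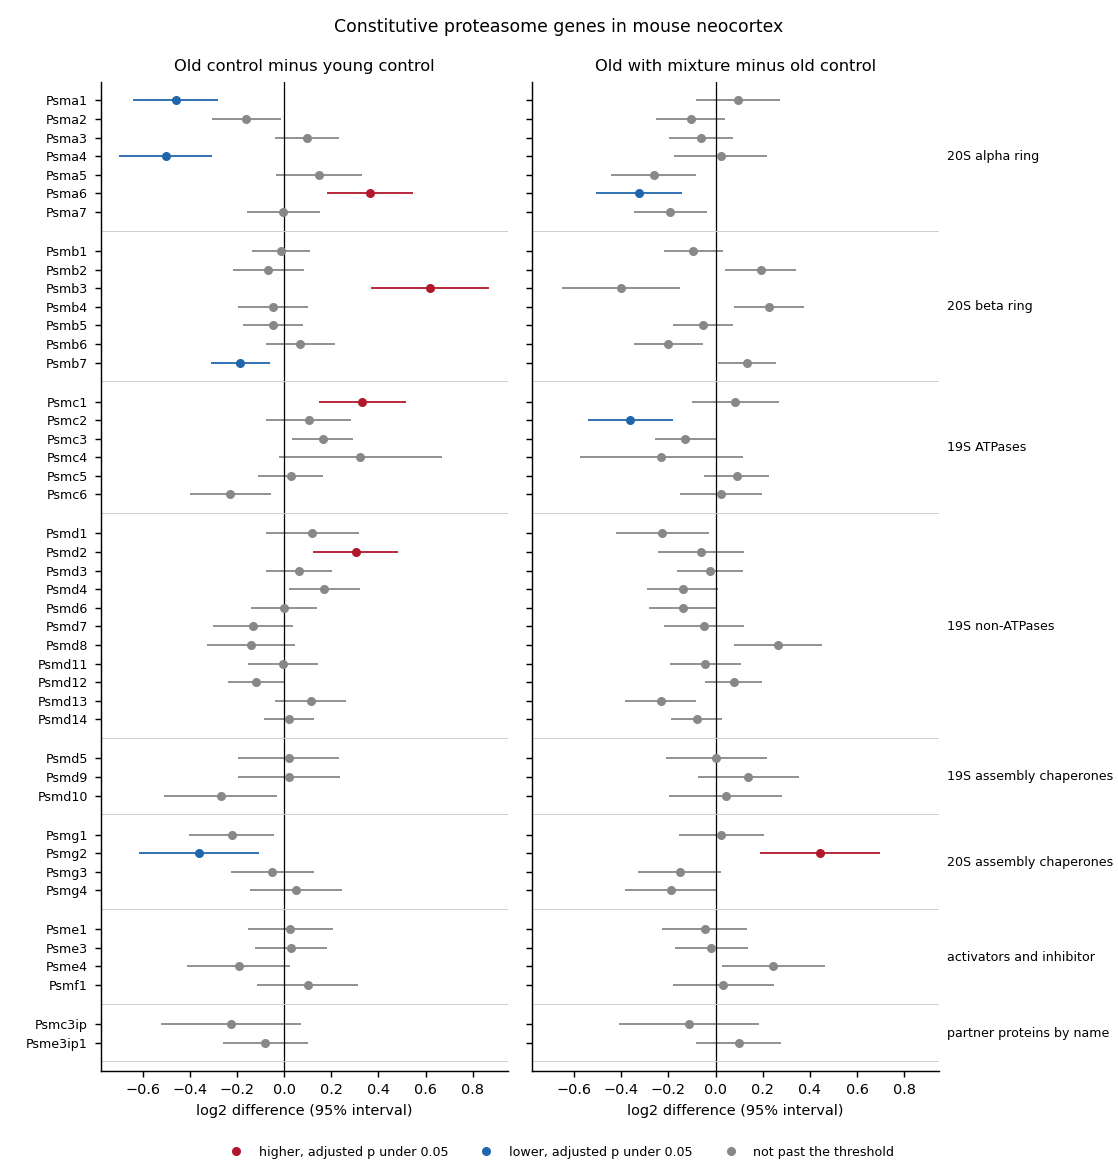
Log2 difference between groups (horizontal axis, with 95% intervals) for each of the 44 proteasome genes, ordered by complex part. Red (higher) and blue (lower) points passed the test at an adjusted p of 0.05, with 4 red and 4 blue for old control against young control mice and 1 red and 2 blue for mixture against old control mice.

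Other measures moved with the same groups, and in bulk tissue fewer cells of a type and less RNA per cell cannot be told apart. Over all genes, 12.4% were higher and 10.4% lower with age, and 1.36% and 3.16% with the mixture. With age 7 of 8 astrocyte markers were higher, with summed signals of 67003.7 to 73487.7 in old control mice and 48503.3 to 50329.6 in young control mice. Of 9 microglial markers 6 were higher and 1 lower, with sums of 22816.6 to 26075 in old control mice and 16008 to 17097 in young control mice. With the mixture 1 microglial marker was higher, and the sums in mixture mice were 19577.9 to 30424.7. Of 9 pan-neuronal markers 5 were higher with age, and 4 were lower in mixture mice, whose sums of 131782.8 to 145524.1 lay below the 151257.2 to 180510.2 of old control mice. Of 7 oligodendrocyte markers 4 were higher with age, and 1, Mbp, was lower with the mixture. Their sums were 66552.9 to 78896.4 in mixture, 79789.3 to 97345.9 in old control and 61495.4 to 73898.1 in young control mice, so old control mice lay above both other groups. Of 6 choroid plexus markers 1, Kl, was higher with the mixture and lower with age, and of 8 meningeal markers 2, Ogn and Islr, were higher with the mixture. Choroid plexus sums spanned 31433.4 to 38533.2 in mixture, 9788 to 52084.9 in old control and 28448.1 to 42234.1 in young control mice. Meningeal sums spanned 4616.2 to 6064.6 in mixture, 3602 to 5474 in old control and 4095.3 to 4746.1 in young control mice. With age, 2 of 6 interneuron markers and 1 of 2 hippocampal markers were also higher and 1 of 7 endothelial and pericyte markers lower. Of 8 neocortical excitatory neuron markers 2 were higher with age and 2 lower with the mixture, and none of the 4 blood markers was among the genes tested. The β-actin 3′ to 5′ signal ratio, which rises as RNA is less intact, was 1.22 to 1.60 in mixture, 1.43 to 2.36 in α-tocopherol, 1.73 to 2.52 in old control and 1.42 to 1.74 in young control mice. The Gapdh 3′ to 5′ ratio was 0.752 to 0.855 in mixture, 0.804 to 0.985 in α-tocopherol, 0.911 to 1.00 in old control and 0.829 to 0.951 in young control mice. The signal of the 18S ribosomal RNA control was 707.6 to 1138 in mixture, 655.3 to 2504.1 in α-tocopherol, 1184.3 to 2068.3 in old control and 421.1 to 794.2 in young control mice. Old control mice thus lay above every mixture mouse in all 3 measures, and above every young control mouse in the ribosomal RNA signal. After adjusting for the β-actin ratio, 3 of 44 proteasome genes (6.82%) stayed called with age (Psmc1, Psmd2 and Psma1), beside 8.67% of all genes after the same adjustment. With the mixture 0 were called, where limma then called 0 of all genes. In the age comparison Psma4 then had -0.30 (limma adjusted p = 0.0591) and Psmb3 0.36 (0.0709). The β-actin ratio did not overlap between mixture and old control mice, so its part and that of the mixture cannot be told apart. It barely overlapped between old and young control mice, which limits the adjustment with age too. The part of the marker changes, the Gapdh ratio and the ribosomal RNA signal in these results was not tested.

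Among the α ring genes, 1 of 7 was higher with age and 2 were lower (background 12.4% and 10.4% of all genes). Psma1 encodes an α subunit. Its signals were 5517.4, 4814.7, 4965.9, 5534.8 and 5433.1 in mixture mice and 4966.2, 5051.1, 3807.1, 5292 and 5675.7 in α-tocopherol mice. They were 4428.9, 5429.2, 4392.3, 5003.9 and 5401.1 in old control mice, against 6841.4, 7100.5, 6387.2, 6525 and 6968 in young control mice. All 15 old mice therefore lay below every young mouse. The age difference was -0.46 ± 0.09 on the log2 scale (SE, 5 mice per group; limma adjusted p = 0.000904), and the signal fell by 27.3% in old control mice. Psma1 also had dimmer probe sets, which gave -0.11, 0.52 and -0.62, with limma p adjusted over all probe sets of 0.716, 0.285 and 0.0362. With the mean of all its probe sets the difference was -0.17 (limma adjusted p = 0.365), which ended the call.

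Psma4, another α subunit, showed the same arrangement. Its signals were 6544.5, 6733.1, 5871.5, 7039.7 and 8631.4 in mixture mice and 5659.2, 7172.5, 6346.6, 6953.5 and 7698 in α-tocopherol mice. They were 6497.3, 8497.3, 6098.9, 6599.7 and 6556.2 in old control mice, against 10063.6, 9371.5, 9343.8, 9609.3 and 9848.2 in young control mice. Again no old mouse reached the young range. Psma4 fell by 29.4% in old control mice (log2 difference -0.50 ± 0.10, SE, 5 per group; limma adjusted p = 0.000951). Psma1 and Psma4 were the 2 of 44 members (4.55%) in which all 15 old mice lay outside the young range on one side, a property that 4.72% of all genes tested had.

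Psma6, also in the α ring, was higher with age. Its signals were 11025.6, 11422.7, 11559.6, 10250.2 and 8483.2 in mixture mice and 14005.7, 11284.7, 11015.6, 13797.8 and 10782 in α-tocopherol mice. They were 12693.6, 12326.8, 12870.3, 13674.7 and 14119.7 in old control mice, against 10105.7, 9127.3, 9744.5, 11253.3 and 10885.3 in young control mice. Old and young control mice did not overlap, and every mixture mouse lay below every old control mouse. The age difference was 0.36 ± 0.09 (SE; 1.29-fold, limma adjusted p = 0.00539). It rested on the brightest probe set, which can match several transcripts. The other Psma6 probe sets gave -0.15 and -0.39, so the direction of Psma6 was not the same across its probe sets.

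Psma2 differed over the 4 groups (limma F test, adjusted p = 0.0274) but not between old and young control mice (-0.16 ± 0.07, limma adjusted p = 0.101). Its signals were 7258, 7072.2, 7553.2, 7070.4 and 7158.9 in mixture mice and 7907.7, 7282.6, 6442.9, 7852.4 and 7812 in α-tocopherol mice. They were 7017.8, 8134.3, 7653.1, 7792 and 8335.3 in old control mice, against 9908.3, 8812.6, 7518.9, 8545.5 and 8805.9 in young control mice. Young mouse 3 lay inside the old range and the other young mice above it. Psma3, Psma5 and Psma7 had age differences of 0.10, 0.15 and 0.00, none of which passed the test.

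**Figure D2:**
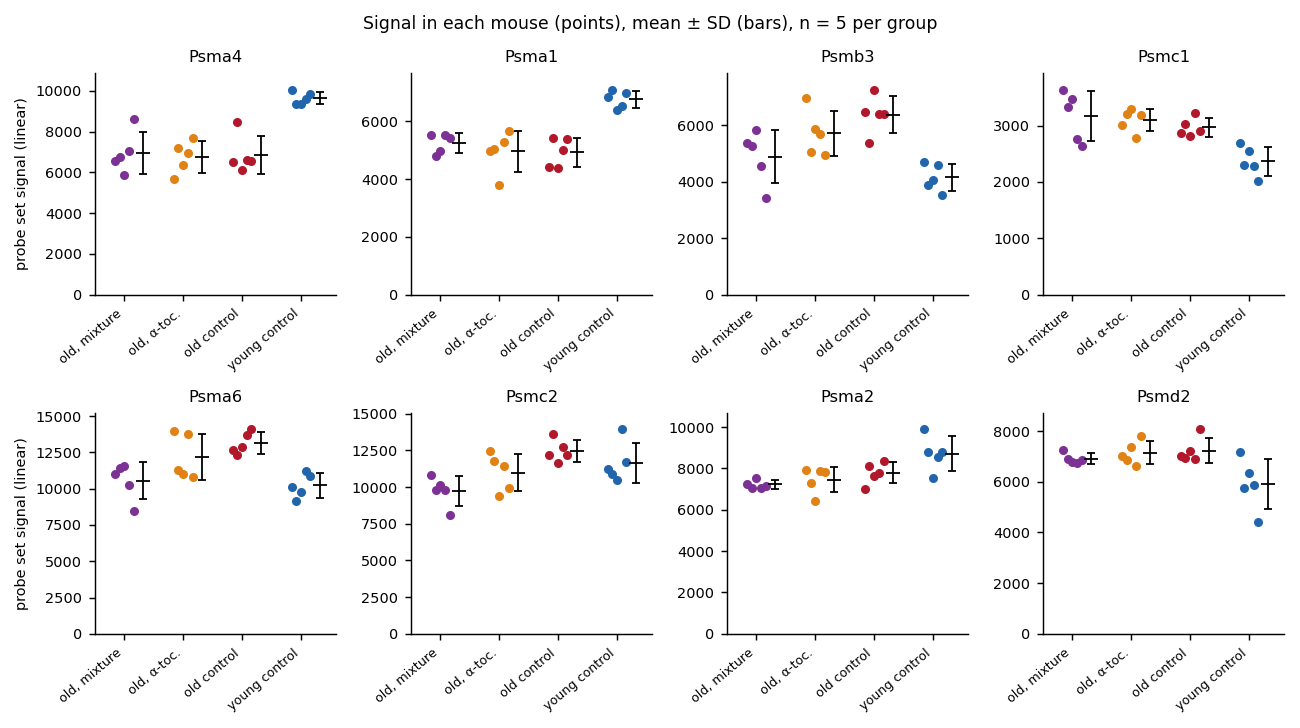
Signal of each mouse (vertical axis, linear, from 0) for the 8 proteasome genes with the smallest F test p-values, by group, with bars for mean and SD (n = 5). Psma1 and Psma4 show all 15 old mice below the 5 young mice, and Psmb3 shows old control mice above young control mice.

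Among the β ring genes, 1 of 7 was higher and 1 lower with age (background 12.4% and 10.4% of all genes). Psmb3, a β subunit without a cutting site, had the largest difference of the family in size. Its signals were 5374.5, 5274.8, 5843, 4546.3 and 3402.3 in mixture mice and 6953.1, 5052.5, 5882.5, 5690 and 4954.4 in α-tocopherol mice. They were 6460.4, 5377.8, 7260, 6382.6 and 6387.6 in old control mice, against 4680.2, 3872.9, 4060.8, 4604.2 and 3525.6 in young control mice. Old and young control mice did not overlap, and 13 of the 15 old mice lay above every young mouse. The difference was 0.62 ± 0.12 (SE; 1.54-fold, limma adjusted p = 0.00118). The second Psmb3 probe set gave 0.17, and the call was lost where that probe set was used alone (limma adjusted p = 0.171).

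Psmb7, the subunit with trypsin-like activity, was lower in old control mice, with signals of 12383.4 to 14837.8 and a median of 13375.9, against 14926.7 to 16305.5 and a median of 15563.6 in young control mice. The groups did not overlap, but the difference was small (-0.19 ± 0.06, SE; it fell by 12.1%, limma adjusted p = 0.0281). It was -0.05 (limma adjusted p = 0.666) with array medians set equal. The other cutting subunits, Psmb5 with chymotrypsin-like and Psmb6 with caspase-like activity, had differences of -0.05 and 0.07 that did not pass the test. Psmb1, Psmb2 and Psmb4 had differences of -0.01, -0.07 and -0.05.

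In the regulatory particle, 1 of 6 ATPase genes and 1 of 11 other subunit genes were higher with age on the brightest probe set. None was lower on it, beside a background of 12.4% higher and 10.4% lower. Some dimmer probe sets of Psmc4, Psmc6, Psmd4 and Psmd11 passed as lower, and another of Psmd11 as higher. Psmc1, an ATPase, had signals of 3638, 3326.9, 3468.2, 2766.8 and 2642.1 in mixture mice and 3016.7, 3200.6, 3297.6, 2787.6 and 3188.4 in α-tocopherol mice. They were 2871.9, 3030.2, 2812.8, 3221.8 and 2903.8 in old control mice, against 2685.5, 2291.5, 2550.4, 2275 and 2012.9 in young control mice. Of the 15 old mice, 14 lay above every young mouse. The age difference was 0.33 ± 0.09 (SE; 1.26-fold, limma adjusted p = 0.00991). It passed the test under each of the 23 other settings tried for it, the single call with age among the subunits to do so.

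Psmd2, the large scaffold subunit that docks ubiquitin carriers, had signals of 7268.4, 6895, 6789.1, 6754.7 and 6861.7 in mixture mice and 7032.5, 6852.6, 7387.4, 6639.5 and 7795.7 in α-tocopherol mice. They were 6999.9, 6953.9, 7198.3, 6896.3 and 8084.2 in old control mice, against 7159.6, 5772.9, 6356.1, 5868.4 and 4412.5 in young control mice. Old and young control mice overlapped through young mouse 1. The difference was 0.30 ± 0.09 (SE; 1.23-fold, limma adjusted p = 0.0156), and after loess normalization it did not pass (0.23, limma adjusted p = 0.0664). Of the other ATPase genes, Psmc6 had -0.23 ± 0.08 (limma adjusted p = 0.0522) on its brightest probe set. Its dimmer probe sets gave -0.30 and -0.58, with limma p adjusted over all probe sets of 0.0297 and 0.0406. Psmc4 gave 0.32 on its brightest probe set and -0.19 on its second, for which the p adjusted over all probe sets was 0.0234.

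Psmd4, a ubiquitin receptor of the cap, varied most between probe sets. Its brightest gave 0.17 with age, and the others -0.25 and -1.18, the last with a limma p of 0.00463 adjusted over all probe sets. In mixture against old control mice the brightest gave -0.14, and the others 0.49 and 0.83, with limma p adjusted over all probe sets of 0.0117 and 0.0851. Psmd11 gave -0.01 with age on its brightest probe set, and 0.43, -0.30, -0.55 and 0.27 on its dimmer ones. Their limma p adjusted over all probe sets were 0.0331, 0.0258, 0.00194 and 0.438. Psmd14, the deubiquitinase of the cap, had the smallest spread among mice (within-group SD 0.061) and an age difference of 0.02 ± 0.05. Psmc4 had the largest spread (SD 0.308). The median within-group SD was 0.134 over the proteasome genes and 0.176 over all genes, without matching for signal.

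Of the core particle chaperones, 1 of 4 was lower with age (background 10.4% of all genes). Psmg2 had signals of 903 to 1447 with a median of 1192.1 in old control mice, against 1398.2 to 1719.1 with a median of 1586.1 in young control mice. The groups overlapped through 1 old mouse, mouse 5, and the difference was -0.36 ± 0.12 (SE; it fell by 22.1%, limma adjusted p = 0.0372). The call was lost in 11 of 23 other settings, among them quantile (limma adjusted p = 0.0502) and loess normalization (0.0541) and array medians set equal (-0.22, 0.230). Its dimmer probe sets gave -0.28 and -0.55. Its chaperone partner Psmg1 had -0.22 ± 0.09 and did not pass (limma adjusted p = 0.0667). None of the 3 regulatory particle chaperones passed: Psmd10, also called gankyrin, had -0.27, and Psmd5 and Psmd9 had 0.02 each. The activators Psme1, Psme3 and Psme4 and the inhibitor Psmf1 had 0.03, 0.03, -0.19 and 0.10, and none passed.

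Probe sets of 1 gene did not always move together. Of the 44 genes, 24 had a single probe set above the limit and 20 had more. Among those 20, all probe sets had the same sign with age for 8 genes and mixed signs for 12. The gene's value throughout is that of its brightest probe set. Of the 44 brightest probe sets, 18 carry a name suffix for matching several transcripts (14 _a_at, 2 _s_at and 2 _x_at).

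**Figure D3:**
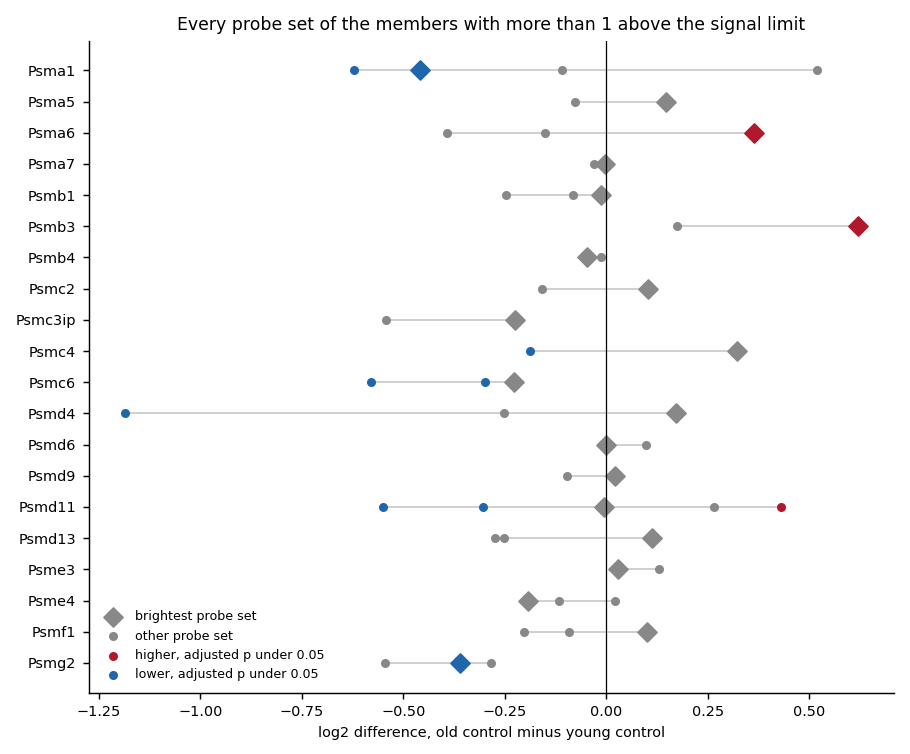
Log2 difference, old control minus young control (horizontal axis), of every probe set above the limit for the 20 proteasome genes with more than 1. Diamonds are the brightest probe set of a gene and circles the others, red (higher) and blue (lower) where the p adjusted over all probe sets was under 0.05, and 12 of the 20 genes have probe sets on both sides of 0.

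The promoters of Psma1 and Psma4, lower in all old mice, and of Psmc1 and Psmb3, higher with age, are shown here to set genes that moved in opposite directions side by side. They are the 250 bases before and 50 after the transcript start in RefSeq, build GRCm38.p6, read 5′ to 3′ on the gene's strand. Capitals mark CCAAT on either strand, the letters bound by the nuclear factor Y complex.
Psma1 promoter, chr7:114276067-114276366, minus strand: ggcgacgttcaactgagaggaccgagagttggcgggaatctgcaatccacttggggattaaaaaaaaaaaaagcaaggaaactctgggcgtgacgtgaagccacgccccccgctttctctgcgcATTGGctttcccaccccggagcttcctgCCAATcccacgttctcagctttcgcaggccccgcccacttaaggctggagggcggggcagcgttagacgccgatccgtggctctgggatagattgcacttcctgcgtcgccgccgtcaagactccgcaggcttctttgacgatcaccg
Psma4 promoter, chr9:54950609-54950908, plus strand: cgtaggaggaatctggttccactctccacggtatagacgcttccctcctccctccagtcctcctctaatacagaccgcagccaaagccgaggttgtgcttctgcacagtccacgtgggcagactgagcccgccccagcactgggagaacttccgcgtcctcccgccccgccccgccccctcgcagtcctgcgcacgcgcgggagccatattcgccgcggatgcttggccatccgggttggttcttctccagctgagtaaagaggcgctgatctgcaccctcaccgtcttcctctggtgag
Psmc1 promoter, chr12:100109952-100110251, plus strand: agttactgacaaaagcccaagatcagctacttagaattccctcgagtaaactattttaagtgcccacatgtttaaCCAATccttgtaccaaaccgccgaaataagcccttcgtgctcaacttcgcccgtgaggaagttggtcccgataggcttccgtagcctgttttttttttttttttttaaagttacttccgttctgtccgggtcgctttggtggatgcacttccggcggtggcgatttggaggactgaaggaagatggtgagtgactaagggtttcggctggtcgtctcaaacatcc
Psmb3 promoter, chr11:97703184-97703483, plus strand: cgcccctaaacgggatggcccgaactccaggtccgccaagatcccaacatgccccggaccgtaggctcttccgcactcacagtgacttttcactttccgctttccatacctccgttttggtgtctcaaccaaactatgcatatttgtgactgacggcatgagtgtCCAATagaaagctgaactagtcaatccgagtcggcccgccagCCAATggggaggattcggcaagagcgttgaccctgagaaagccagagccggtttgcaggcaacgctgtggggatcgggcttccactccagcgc
CCAAT occurred 2 times in the Psma1 window, 0 times in Psma4, 1 time in Psmc1 and 2 times in Psmb3, so it was present and absent among the lower genes. GGGCGG, the letters of the GC box, occurred 2, 4, 0 and 0 times in that order, on either strand. It was also present for Psmd2, which was higher with age, so it did not follow the direction of the age difference. TGACNNNGC, the core of the antioxidant response element through which the proteasome regulator Nfe2l1 acts, occurred in none of these 4 windows on either strand. RefSeq promoters were found for 38 of the 46 genes. TGACNNNGC was present for 6 of the 38 (Psmb5, Psmb6, Psmc6, Psmd12, Psmd9 and Psme4), compared with 12.4% of 32851 promoters. CCAAT was present for 15 of the 38, compared with 37.4%, and GGGCGG for 22 of the 38, compared with 35.7%. These letter matches describe the windows and were not tested for binding.

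Supplementation with α-tocopherol alone was compared with old control mice. No proteasome gene passed the test (background 0% of all genes), and limma called 0 of 13351 genes, with 753 genes and 3 proteasome genes at an unadjusted p under 0.05. Log2 differences of the 44 genes ran between -0.24 and 0.20, with a median of -0.03. The smallest p among genes with higher values belonged to Psmb2 (0.15), Psmb4 (0.14) and Psmd8 (0.16), and among genes with lower values to Psmg4 (-0.24), Psmd13 (-0.16) and Psmc2 (-0.19). The lowest adjusted p was 0.857. Psmb2, a β subunit, had 3956.4, 3738.5, 3775.6, 3732.2 and 3788.7 in α-tocopherol mice and 2863.5, 3627.7, 3539.6, 3584.9 and 3592.7 in old control mice. It was the 1 member whose mice did not overlap, a property of 0.801% of all genes.

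Psmg4, a small chaperone of core particle assembly, had 1422.4, 1534, 1594.4, 1505.1 and 1368.8 in mixture mice and 1677, 1334.9, 1209.4, 1724.1 and 1265.7 in α-tocopherol mice. It had 1652.6, 1740.1, 1522.7, 1768.9 and 1799.4 in old control mice, against 1643.4, 1576, 1479.4, 1883.1 and 1610.7 in young control mice. The α-tocopherol mice fell into 2 that lay within the old control range and 3 below it. For Psma1 and Psma4, the genes with the lowest age p-values, the α-tocopherol minus old control differences were 0.00 (95% interval -0.18 to 0.18) and -0.02 (-0.21 to 0.18).

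The mixture was compared with the same old control mice, so its differences share that group with the age comparison. Psmg2 was higher in mixture mice, and Psmc2 and Psma6 were lower. These 3 of 44 genes (6.82%) stand beside a background of 4.52% of all genes (1.36% higher and 3.16% lower). The median log2 difference was -0.05 over the proteasome genes and 0.00 over all genes, and 14 of the 44 (31.8%) had an unadjusted p under 0.05, against 2550 of all genes (19.1%). With array medians set equal 0 were higher and 4 lower (9.09%), beside 5.07% of all genes. After quantile or loess normalization 2 were higher and 0 lower (4.55%), beside 0.607% and 0.682% of all genes. The call count was 0 without old control mouse 4, 0 without mixture mouse 5 and 0 after adjusting for the β-actin ratio.

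Psmg2 had signals of 1298.8 to 1944.9 with a median of 1662.9 in mixture mice, against 903 to 1447 with a median of 1192.1 in old control mice. The groups overlapped, and the difference was 0.44 ± 0.12 (SE; 1.36-fold, limma adjusted p = 0.042). The second Psmg2 probe set gave 0.03. The call was lost in 16 of 23 other settings, among them leaving out old control mouse 1, 3 or 4.

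Psmc2, an ATPase, had signals of 10848, 9783.5, 10172.4, 9784.2 and 8122.1 in mixture mice and 12435, 11747.2, 9403, 11425.4 and 9907.2 in α-tocopherol mice. It had 12201.7, 13639.6, 11669.2, 12764.2 and 12158.7 in old control mice, against 11252.6, 10922.1, 10477.3, 13966.6 and 11706.1 in young control mice. Every mixture mouse lay below every old control mouse. The difference was -0.36 ± 0.09 (SE; it fell by 22.2%, limma adjusted p = 0.0226). The call was lost in 7 of 23 other settings, among them quantile normalization (-0.25, limma adjusted p = 0.107), and without old control mouse 4 or mixture mouse 5. Its second probe set gave -0.13.

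Psma6 fell by 20.1% in mixture mice, with no overlap (-0.32 ± 0.09, SE; limma adjusted p = 0.0392). The call was lost in 13 of 23 other settings, and without the probe sets that can match several transcripts the value was 0.03. Psmb3 (-0.40, limma adjusted p = 0.0582), Psmb4 (0.23, 0.0736) and Psmd8 (0.27, 0.0923) did not pass. Among 23 other settings Psmb3 passed in 5, Psmb4 in 2 and Psmd8 in 0. In 7 members every mixture mouse lay below every old control mouse (Psmc2, Psma6, Psmd13, Psma5, Psma7, Psmd1 and Psmg3), and in 1, Psmb2, above, compared with 3.7% and 2.09% of all genes, or 5.79% in either direction. For Psma1 and Psma4 the mixture minus old control differences were 0.09 (95% interval -0.09 to 0.27) and 0.02 (-0.18 to 0.22).

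Between the 2 supplements no proteasome gene passed (background 0%), and limma called 0 of all genes, with 1163 genes and 4 proteasome genes at an unadjusted p under 0.05. The mixture minus α-tocopherol differences with the smallest p were 0.23 for Psme4, 0.24 for Psmg2 and 0.09 for Psmc5 above 0. Below 0 they were -0.21 for Psma6, -0.16 for Psmb6 and -0.16 for Psma7. The lowest adjusted p was 0.502, and no member had groups without overlap, compared with 1.23% of all genes (0.367% higher and 0.861% lower).

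Over the 4 groups together, the F test called 9 of 44 genes (20.5%; background 25.5%): Psma4, Psma1, Psmb3, Psmc1, Psma6, Psmc2, Psma2, Psmd2 and Psmg2. The mean log2 signal over the 44 genes was 11.91 ± 0.03 in mixture mice, 11.91 ± 0.05 in α-tocopherol mice, 11.94 ± 0.04 in old control mice and 11.95 ± 0.06 in young control mice (SD, n = 5 each). The ranges of this mean overlapped between all 4 groups. Deviations of the genes from their group means had a mean pairwise correlation of 0.12 over the 20 mice, against 0.003 over all genes. This is a description, since all genes of a mouse share an array and its scaling.

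The 3 immunoproteasome genes replace the cutting subunits of the core after interferon signals. Psmb9 was 2.03-fold and Psmb10 1.16-fold higher in old control mice (limma adjusted p = 0.00127 and 0.0241). The Psmb10 call was lost in 5 of 23 other settings. The log2 ratio of each to the subunit it replaces was compared within arrays, and the level of such a ratio between 2 probe sets has no meaning of its own. Psmb10 over Psmb7 differed by 0.40 between old and young control mice, with 5 of 5 old mice above every young mouse (exact two-sided permutation test, p = 0.00794, the smallest that 5 against 5 mice allow; 0.0238 adjusted over the 3 ratios). Psmb9 over Psmb6 differed by 0.95, with 4 of 5 old mice above every young mouse (exact permutation p = 0.0238, adjusted 0.0357), and by 0.70 without old control mouse 3. Psmb8 over Psmb5 differed by 0.59, with 3 of 5 old mice above every young mouse, and did not pass (exact permutation p = 0.0794, adjusted 0.0794). That ratio rested on old control mouse 3, with 1117.6 for Psmb8, and was 0.26 without it. It passed in 4 of 15 other settings.

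**Figure D4:**
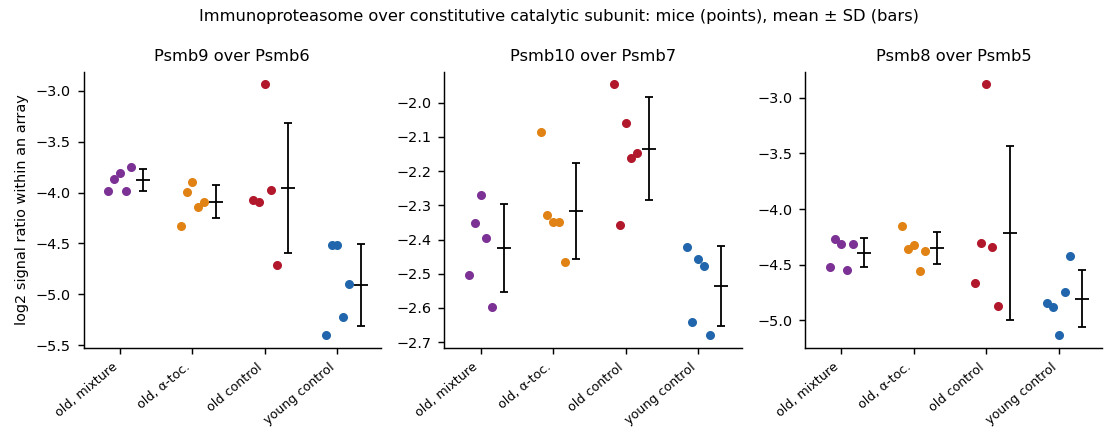
Log2 ratio of each immunoproteasome gene to the constitutive subunit it replaces, within each array (vertical axis), for every mouse by group, with mean and SD. All 5 old control mice lie above the 5 young control mice for Psmb10 over Psmb7, and old control mouse 3 is the highest point for Psmb9 over Psmb6 and Psmb8 over Psmb5.

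The surrounding pathway was read from gene lists. Of 19 tested partners and assembly factors, 1 was higher with age, the p97 cofactor Nploc4 (0.26, limma adjusted p = 0.0267), and none was lower. Of 20 tested genes for ubiquitin, its activating and conjugating enzymes, ligase parts and deubiquitinases, 4 were higher and 3 lower (background 12.4% and 10.4%). The deubiquitinase Otub1 rose by 1.41-fold, and the deubiquitinase Usp7 (0.28), the conjugating enzyme Ube2r2 (0.26) and the ligase adaptor Skp1 (0.16) were also higher. The conjugating enzymes Ube2b (-0.38) and Ube2a (-0.36) and the ligase scaffold Cul3 (-0.29) were lower. The Skp1 call was lost in 14 of 23 other settings, and its difference was 0.07 and 0.05 after quantile and loess normalization. The Cul3 call was lost in 7, the Nploc4 call in 4, and the Ube2r2 call in 6. Usp7 and Ube2r2 turned negative, to -0.14 and -0.49, without the probe sets that can match several transcripts. The list medians were 0.03 and 0.07, against -0.02 over all genes.

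Of 13 tested regulators of proteasome genes, 4 were higher in old control mice and none was lower (background 12.4% and 10.4%), with a list median of -0.01. Nfe2l1, the transcription factor that raises proteasome genes when the protease is inhibited, was higher by 1.25-fold (0.32 ± 0.07, SE, limma adjusted p = 0.00395). The forkhead factors Foxo4 and Foxo3 had 0.57 and 0.41, and Nfyc, a subunit of nuclear factor Y, had 0.29. The Foxo3 call was lost in 8 of 23 other settings. In mixture against old control mice, the proteasome shuttle Ubqln2 was lower (-0.36, limma adjusted p = 0.0278) and Ube2a was higher (0.33, limma adjusted p = 0.0179). The Ubqln2 call was lost in 9 of 23 other settings, with -0.03 for the mean of its probe sets, and the Ube2a call in 4. None of the regulators or the immunoproteasome genes passed in that comparison, with Nfyb at -0.38 (limma adjusted p = 0.0891) and Psmb10 at -0.15 (0.202). Nfyb passed in 1 of 23 other settings.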

How the data were processed

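Neocortex RNA of 20 mice was measured on Affymetrix oligonucleotide arrays. Per the labels' protocols, poly(A) RNA was primed with oligo-dT and labelled as biotin cRNA. The deposited values are linear intensities, 1 per probe set and array, and each array as deposited has a 2% trimmed mean of 1000. The submitters' processing notes name GCOS, and no source used here gives the summary or background steps. Such scaling hides a shift of all RNA in one direction, and the number of arrays limits the precision.

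The deposited intensities were used as log2(signal + 16), so fold changes of dim genes are understated. Of 45101 probe sets, 64 controls were left out. Of the other 45037, 34945 had 1 gene symbol in the platform annotation, 932 several and 9160 none, and 34741 of the single symbols matched RefSeq. The 60% of probe sets with the highest mean were kept (27022), with the brightest one per gene. All 4 groups entered one fit in limma 3.58.1 (R 4.3.3) with an intensity trend, without a covariate. P-values were adjusted over 13351 genes by Benjamini-Hochberg, at a threshold of 0.05. Ratios were tested exactly with scipy 1.17.1. The limma steps were tested on simulated data. Replicates are separate mice, per the labels, and the numbers 1 to 5 were taken as names. Deviations of same-numbered mice had correlations of -0.12 to 0.20 over 30 pairs, which were not set against those of different numbers.

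The members and lists were chosen with earlier results of these data known. Named genes are the members called in a comparison, or the 3 smallest p-values in a direction with fewer than 3 calls. Values of every mouse are given for the 8 members with the smallest F test p and the member with the smallest p of each comparison. From the lists, up to 4 called genes per direction are named, or the smallest p where there was none. The diet text of the series gives 500 mg/kg of each tocopherol, and the sample labels give 1000 mg/kg for α-tocopherol alone. The alternatives changed the pseudocount, normalization, filter, probe set choice, variance trend, samples fitted, a β-actin covariate, a replicate block and single mice.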

Additional observations from a re-analysis of the deposited data

Results flagged for a closer look

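Dixon's test for a value apart from its group was run on 36 groups (9 genes in 4 groups) and marked 3, where chance marks about 1 in 20. Psma4 in old control mouse 2 was 8497.3, above the other old control mice, and still below every young control mouse. Psmd2 in mixture mouse 1 was 7268.4, above the other mixture mice. Psmd2 in old control mouse 5 was 8084.2, above the other old control mice. Leaving out single mice, the age difference ran between -0.58 and -0.46 for Psma4 and between 0.20 and 0.38 for Psmd2.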

How the results depend on the processing

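Of 1055 values recomputed under other settings, 905 kept their direction and side of the threshold. The total includes values not called to begin with, as in the α-tocopherol and supplement comparisons, where the side could hardly change. The mixture calls of Psmg2, Psma6 and Psmc2 were kept in 7, 9 and 16 of 23 settings. Calls with age numbered 8 and stayed within 8 to 10 in all settings but the β-actin covariate (3) and leaving out single mice (6 to 9). The share of all genes called with age was 8.67% with that covariate and 16.2% to 27.3% in the other settings, single mice aside. Calls with the mixture numbered 3, beside 4.52% of all genes. They were 1 with no filter on dim probe sets (2.30% of all genes), 1 with no intensity trend (2.33%) and 1 with the compared groups only (2.39%). They were 0 with the mean of all probe sets (2.13%), 0 without probe sets named _x_at, _s_at or _a_at (2.08%) and 0 with the β-actin covariate (0%). Without single mice they ran between 0 and 4. The F test calls ran between 6 and 10 without single mice. The α-tocopherol and supplement comparisons stayed at 0. With the replicate number as a block, calls were 10 with age, 4 with the mixture, 11 over the 4 groups and 0 in the others. The block gave 22.7% of members and 24.5% of all genes with age, and 9.09% and 5.21% with the mixture. All-gene shares are not given for the F test under other settings or for fits without single mice. Of 20 mice, 6 correlated best with their own number, and whether that exceeds chance was not tested. Over all genes, the mixture calls numbered 603 and were 81 with quantile and 91 with loess normalization, 0 with the β-actin covariate, and the age calls 3039 and 1158 with that covariate.

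The median difference with age (0.01) was -0.038 with quantile, -0.058 with loess, 0.15 with array medians set equal, -0.043 with the mean of probe sets and -0.051 without those named probe sets. With the mixture (-0.05) it was -0.12 with medians equal and 0.0036 without those probe sets, and between supplements (0.00) it was -0.053 with medians equal. Without single mice the medians ran between -0.01 and 0.03 with age, -0.05 and -0.01 with α-tocopherol, -0.08 and -0.03 with the mixture and -0.01 and 0.02 between supplements. With the mean of probe sets, age differences turned to -0.060 for Psma6, -0.10 for Usp7 and -0.11 for Ube2r2, and the mixture difference of Psmb4 to -0.0034. Without those named probe sets, age differences turned to -0.15 for Psma6, -0.14 for Usp7 and -0.49 for Ube2r2, mixture differences to 0.033 for Psma6 and 0.16 for Psmb3, Psmc2 with α-tocopherol to 0.034 and Psma7 between supplements to 0.088. The cause was not tested.

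Leaving out any of old control mice 1, 3 and 4 ended the age calls of Psmb7 and Psmg2, as did young mice 1, 2 and 5 for Psmb7 and young mice 1, 2 and 3 for Psmg2. The Psma6 call with the mixture ended on leaving out any of old control mice 1, 3, 4 and 5 and mixture mice 4 and 5. The scaled signals limit all of these to relative change.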
